A study of Mus musculus with 12 samples.

Results

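The genes described here form a run on mouse chromosome 4 that begins at Tusc1 and ends at Akirin1 in RefSeq gene order (assembly GRCm38). A gene was taken as a member where its probe sets carried a single gene symbol and its start lay between those of Tusc1 and Akirin1, both included. The table held 220 such genes, read by 411 probe sets, of 16509 named genes and 37600 probe sets in all. RefSeq lists 622 genes with a start in this stretch, of which 299 are protein coding; 211 of the 220 measured members are protein coding. The run had been delimited from the same arrays, by the difference between arrays labelled RARaKO and WT, so that difference is given for its members as a description and without a test. The response to retinoic acid was not used to choose the genes and is tested.

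RNA of the mouse teratocarcinoma line F9 was hybridised to 12 Affymetrix arrays in 4 groups of 3, with replicates numbered in the labels as sets 2, 3 and 4. Cells were WT or labelled RARaKO, a knockout of the gene for retinoic acid receptor alpha, Rara. Both genotypes were plated 16 h before treatment and pretreated for 30 min with cycloheximide, an inhibitor of protein synthesis, at 1 µg/ml. They then received either 1 µM all-trans retinoic acid (atRA) or the ethanol vehicle alone (EtOH, 0.1%) for 7.5 h, so that all 4 groups, controls included, spent 8 h in cycloheximide. The labels do not say how the knockout was made, whether it is 1 clone, or whether the sets are separate cultures. P-values therefore reflect how these arrays vary, and that variation may be technical. DNA copy number was not measured.

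A gene that is present in an extra copy is usually transcribed in proportion to its dose, so that a trisomic segment raises the RNA of most of its active genes by a ratio of 3 to 2, while genes that are silent or under feedback control move less. Retinoic acid acts through nuclear receptors that bind DNA as partners of the retinoid X receptors, often at repeats of AGGTCA, and drives F9 cells from a stem cell state towards endoderm.

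Sequence upstream of the annotated start is shown for 6 members on which the results below turn; they were chosen after their values were seen. Each is the 250 bases before the start, read 5′ to 3′ on the gene's own strand from RefSeq (GRCm38.p6), with CpG dinucleotides in capitals. Tusc1 opens the run and lay far above a 3 to 2 ratio, as did Lrrc42. Foxd3 and Hivep3 are the members that were called for a response to atRA. B4galt2 and Guca2a are members without a gain, the former in the higher and the latter in the lower class of expression level.
Tusc1 promoter, chr4:93335512-93335761, minus strand: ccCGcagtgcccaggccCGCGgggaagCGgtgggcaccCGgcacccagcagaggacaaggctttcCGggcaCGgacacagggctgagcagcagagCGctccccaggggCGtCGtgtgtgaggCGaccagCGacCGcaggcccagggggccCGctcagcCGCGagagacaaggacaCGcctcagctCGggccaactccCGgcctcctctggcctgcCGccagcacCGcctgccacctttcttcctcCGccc
Lrrc42 promoter, chr4:107253534-107253783, minus strand: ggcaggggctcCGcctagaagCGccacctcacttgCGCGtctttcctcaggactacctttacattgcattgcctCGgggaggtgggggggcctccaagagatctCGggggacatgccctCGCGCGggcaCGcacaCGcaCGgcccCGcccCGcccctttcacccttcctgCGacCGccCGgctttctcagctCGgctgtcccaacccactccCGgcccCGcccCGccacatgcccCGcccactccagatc
Foxd3 promoter, chr4:99656049-99656298, plus strand: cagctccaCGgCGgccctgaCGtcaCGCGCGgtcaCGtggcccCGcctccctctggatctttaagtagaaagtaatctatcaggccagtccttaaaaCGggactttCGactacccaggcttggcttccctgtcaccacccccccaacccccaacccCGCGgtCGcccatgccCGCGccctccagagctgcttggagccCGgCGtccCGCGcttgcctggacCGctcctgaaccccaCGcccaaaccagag
Hivep3 promoter, chr4:119814428-119814677, plus strand: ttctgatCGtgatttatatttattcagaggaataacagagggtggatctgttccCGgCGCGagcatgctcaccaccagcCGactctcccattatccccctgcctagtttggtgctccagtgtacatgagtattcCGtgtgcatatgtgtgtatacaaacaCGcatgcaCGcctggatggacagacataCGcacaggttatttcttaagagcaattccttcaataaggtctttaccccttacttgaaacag
B4galt2 promoter, chr4:117883477-117883726, minus strand: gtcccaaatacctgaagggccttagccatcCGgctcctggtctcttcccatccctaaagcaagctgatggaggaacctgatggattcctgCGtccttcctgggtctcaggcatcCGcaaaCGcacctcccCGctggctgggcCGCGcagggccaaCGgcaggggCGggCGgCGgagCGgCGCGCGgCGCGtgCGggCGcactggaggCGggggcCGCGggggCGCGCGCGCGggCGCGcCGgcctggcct
Guca2a promoter, chr4:119637482-119637731, plus strand: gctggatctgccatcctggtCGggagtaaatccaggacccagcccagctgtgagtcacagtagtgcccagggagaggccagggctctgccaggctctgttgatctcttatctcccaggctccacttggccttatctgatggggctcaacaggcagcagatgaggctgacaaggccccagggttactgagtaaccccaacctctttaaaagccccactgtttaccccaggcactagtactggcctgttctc
The 6 windows held 22, 22, 21, 9, 30 and 1 CpG in this order. A promoter entry was found for 200 of the 220 members, of which 152 have 1 listed start. The median number of CpG per 250 bases was 13 over these 200, against 6 over all 27025 genes with a promoter entry. That larger set was not limited to genes measured on the arrays. The 2 sets therefore differ in more than their place in the run. It was 15 among the 135 members with a gain in both treatments and 5 among the 51 with no gain in both, by the classes defined below. The same order was seen within the lower class of expression level, with 14 in 27 genes with a gain and 5 in 43 without. In the higher class it was 15 in 108 genes with a gain and 4.5 in the 8 without. The gain classes use the differences on which the run was chosen, and a gain can itself raise the level class. A split by that class therefore does not hold level constant, and these counts are a description only. As the B4galt2 window shows, a CpG-rich window was also found in a member without a gain.

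Motifs were searched as letters on both strands of the same windows. GGGCGG, the core of the GC box, was present in 57.5% of the members' windows and 32.9% of all 27025 windows, measured genes or not. AGGTCA, the hexamer bound by retinoic acid receptors, was present in 12.5% and 13.8%, TATAAA in 6% and 12.97%, and CCAAT in 38% and 34.5%. The Hivep3 window held TATAAA and no AGGTCA. The Foxd3 window held none of the 4 motifs. GGGCGG and a CpG count overlap, since the motif contains CG. These matches describe letters in 250 bases and are not binding sites.

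The targeted gene was read first, since it checks the labels. In EtOH, Rara read -0.55, -0.50 and -0.76 in the WT arrays (sets 2, 3 and 4) and 0.29, 0.32 and 0.30 in those labelled RARaKO. In atRA it read -0.26, -0.05 and -0.17 in WT and 0.26, 0.05 and 0.29 in RARaKO. The groups did not overlap in either treatment, and Rara lay higher under the knockout label, by 0.90 ± 0.09 in EtOH and 0.36 ± 0.09 in atRA (limma, adjusted p = 1.50e-04 and 0.0488). With atRA, Rara rose by 0.45 ± 0.09 in WT (limma, adjusted p = 0.0460). In RARaKO its response was -0.10 ± 0.09 (limma, adjusted p = 0.839). The difference between these responses, -0.55 ± 0.12, did not pass an adjusted p of 0.05. The single probe set may lie outside any deleted part, and its position was not tested. These values therefore do not settle the label. All directions below are those of arrays labelled RARaKO minus arrays labelled WT. All 11 pluripotent stem cell markers listed for F9 cells were in the higher level class, as were 7 of 8 markers of extraembryonic endoderm, 1 of 5 of fibroblasts (Col1a2) and 2 of 5 of trophoblast (Eomes and Tfap2c). Their part in the results was not tested. The SD over probe sets ranged from 0.128 to 0.162 in 11 arrays and was 0.201 in set 2 of the RARaKO atRA group.

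The run as a whole read higher in the arrays labelled RARaKO. Its median difference was 0.46 on the log2 scale in EtOH, a fold of 1.37, and 0.45 in atRA, also a fold of 1.37. Over all 16509 genes the medians were -0.02 and -0.01. Values are relative to each probe set's own median over the 12 arrays, so a difference between groups can be read from them, while a level cannot. A coarse class of level could be recovered from the numerical steps of values above each probe set's median. By it, 130 members fell in the class of 8 or more on the log2 scale and 90 in the class of 4 to 8. Where all RARaKO arrays lay above all WT arrays, those values came from RARaKO arrays. A gain can thus raise the class, which is not independent of the difference. The 130 genes of the higher class had medians of 0.57 in EtOH and 0.56 in atRA, folds of 1.48 and 1.47, close to the 0.58 (log2) of a 3 to 2 ratio. The 90 genes of the lower class had medians of 0.12 in both treatments. In RNA from bulk cultures, a gain in some of the cells and a smaller gain in all of them cannot be told apart.

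**Figure D1:**
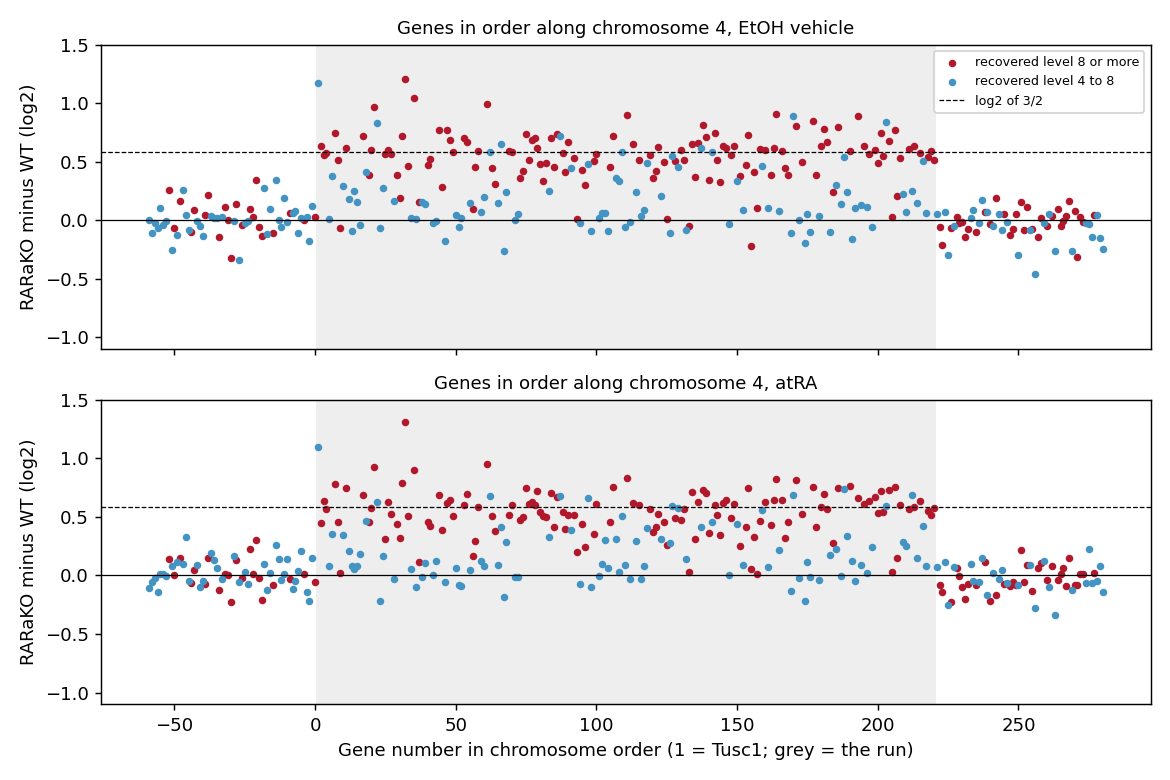
RARaKO minus WT difference (log2, vertical axis) of each gene against its place in chromosome order (horizontal axis, 1 = Tusc1), with 60 measured genes on either side of the run, for EtOH (top) and atRA (bottom); red and blue points are the higher and lower class of level. Inside the grey run most red points lie around the dashed line at 0.58, while outside it the points scatter around 0.

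The edges of the run, which the rule took from these differences, are given gene by gene. On the left side, Elavl2, a neuronal RNA-binding protein gene, was the last gene before the run. In EtOH, Elavl2 read 0.13, 0.10 and 0.08 in the WT arrays and 0.16, 0.19 and 0.03 in the arrays labelled RARaKO. In atRA, Elavl2 read -0.07, -0.36 and -0.03 in WT and -0.36, -0.12 and -0.17 in RARaKO. The groups overlapped in both treatments. In EtOH, Tusc1 read -0.56, -0.49 and -0.46 in the WT arrays and 0.46, 0.91 and 0.63 in the arrays labelled RARaKO. In atRA, Tusc1 read -0.66, -0.53 and -0.50 in WT and 0.47, 0.50 and 0.64 in RARaKO. Every array labelled RARaKO lay above every WT array for Tusc1, a tumour suppressor candidate, and for its neighbour Caap1, a gene for an apoptosis inhibitor, with differences of 1.17 and 1.10 and of 0.64 and 0.44 in EtOH and atRA. On the right side, Ndufs5, which encodes a subunit of respiratory complex I, differed by 0.59 and 0.52. In EtOH, Akirin1 read -0.27, -0.27 and -0.28 in the WT arrays and 0.21, 0.28 and 0.24 in the arrays labelled RARaKO. In atRA, Akirin1 read -0.21, -0.37 and -0.21 in WT and 0.35, 0.26 and 0.32 in RARaKO. Its genotypes did not overlap, and the differences of this nuclear co-regulator gene were 0.51 and 0.58. In EtOH, Rhbdl2 read -9.1e-05, 9.1e-05 and -0.12 in the WT arrays and -0.0027, 9.1e-05 and 0.05 in the arrays labelled RARaKO. In atRA, Rhbdl2 read -0.11, 0.06 and -0.04 in WT and -0.05, 0.04 and 0.12 in RARaKO. This rhomboid protease gene, the first beyond the run, overlapped between genotypes and differed by 0.06 ± 0.07 in EtOH and 0.07 ± 0.07 in atRA, while Elavl2 differed by 0.02 ± 0.09 and -0.06 ± 0.09. A value after ± is a standard error from the fit, at 3 arrays a group, unless SD is named.

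Outside the run, the remaining genes of chromosome 4 had medians near those of all genes. The 351 genes before it had a median difference of -0.02 in EtOH and -0.01 in atRA, and the 440 genes after it had -0.02 and -0.01. Over the 20 chromosomes, with chromosome 4 taken without the run, the medians ranged from -0.08 to -0.0034 in EtOH and from -0.07 to 0.01 in atRA. Along the run, in 10 consecutive blocks of 22 genes, the median over genes of the higher class lay between 0.48 and 0.64 in EtOH and between 0.45 and 0.64 in atRA. Genes with no gain were scattered among the others. The longest stretch of consecutive genes with no gain or a lower value in both treatments was 4 (Gm12789, Pde4b, Insl5 and Wdr78).

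By array, the separation was complete. The run was chosen on these same arrays, so a separation was built in and the medians are given as a description. The median over the 130 genes of the higher class ranged from 0.28 to 0.31 in the RARaKO EtOH arrays and from 0.23 to 0.29 in the RARaKO atRA arrays, against -0.30 to -0.25 in the WT EtOH arrays and -0.29 to -0.25 in the WT atRA arrays. For the 90 genes of the lower class the ranges were 0.02 to 0.09 and 0.03 to 0.12 in RARaKO, and -0.08 to -0.04 and -0.09 to -0.02 in WT. No RARaKO array fell among the WT arrays in either class. The 791 other genes of chromosome 4 gave array medians between -0.02 and 0.01 in all groups, and there the genotypes overlapped.

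**Figure D2:**
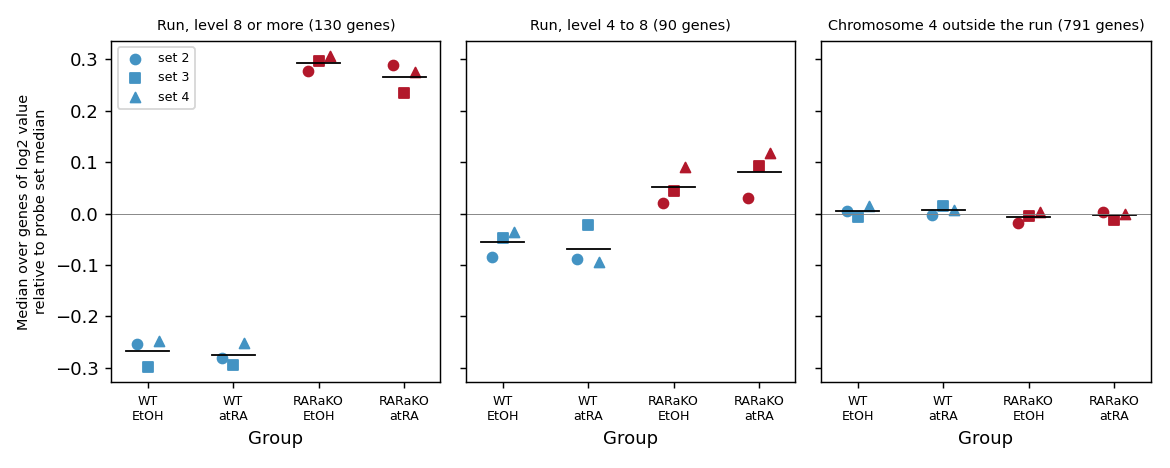
Median over genes of the log2 value relative to each probe set's median (vertical axis) in each array of the 4 groups, for the 130 members of the higher level class, the 90 of the lower class and the 791 genes of chromosome 4 outside the run; bars are group means and symbols mark the set. RARaKO arrays (red) lie above WT arrays (blue) in both panels of the run and among them in the panel of other genes. The members of the run were chosen on this difference in the same arrays.

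Each member was set against a 3 to 2 ratio by the 95% interval of its difference, which reached a median of 0.179 to either side. An interval wholly above 0.58 was called above 3 to 2, one that held 0.58 and lay above 0 was called 3 to 2, and one between 0 and 0.58 was called partial. An interval that held 0 and lay below 0.58 was called no gain, one that held both was undetermined, and one below 0 was lower. The 3 to 2 class means only that this ratio was not excluded. Its differences ran from 0.34 to 0.89 in EtOH and from 0.35 to 0.82 in atRA. Partial ones ran from 0.18 to 0.42 and 0.18 to 0.46, and those without gain from -0.27 to 0.25 and -0.18 to 0.24. A class depends on the standard error as well as the difference, so these ranges overlap. In EtOH, 17 members were above 3 to 2 (0.23% of all genes), 106 at 3 to 2 (2.56%), 28 partial (4.46%), 67 without gain (82.8%), 1 undetermined (0.588%) and 1 lower (9.36%). In atRA the counts were 13 (0.17%), 106 (2.26%), 37 (5.28%), 60 (81.1%), 2 (0.503%) and 2 (10.7%). The shares of all genes are given as background only, since the rule for the run used these differences. The class was the same in both treatments for 186 members (84.5%).

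A gain of any size (above, 3 to 2 or partial) was found in both treatments for 148 members. These were 119 of the 130 genes of the higher level class (91.5%) and 29 of the 90 of the lower class (32.2%). A gain can itself raise the level class of a member, so these shares are a description only. The same call was made for 7.25% of all genes in EtOH and 7.71% in atRA. In the fit across all genes, 131 members were past limma's adjusted p of 0.05 as higher in EtOH (2.06% of all genes were) and 131 in atRA (1.74%), and none as lower, against 1.35% and 1.79% of all genes. These counts follow from how the run was chosen, so they are no test of the members and nothing is read from them. The 3 arrays labelled RARaKO all lay above the 3 WT arrays for 158 members in EtOH (9.61% of all genes) and 155 in atRA (9.07%), and all below for 1 (14.6%) and 2 (12.3%).

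**Figure D3:**
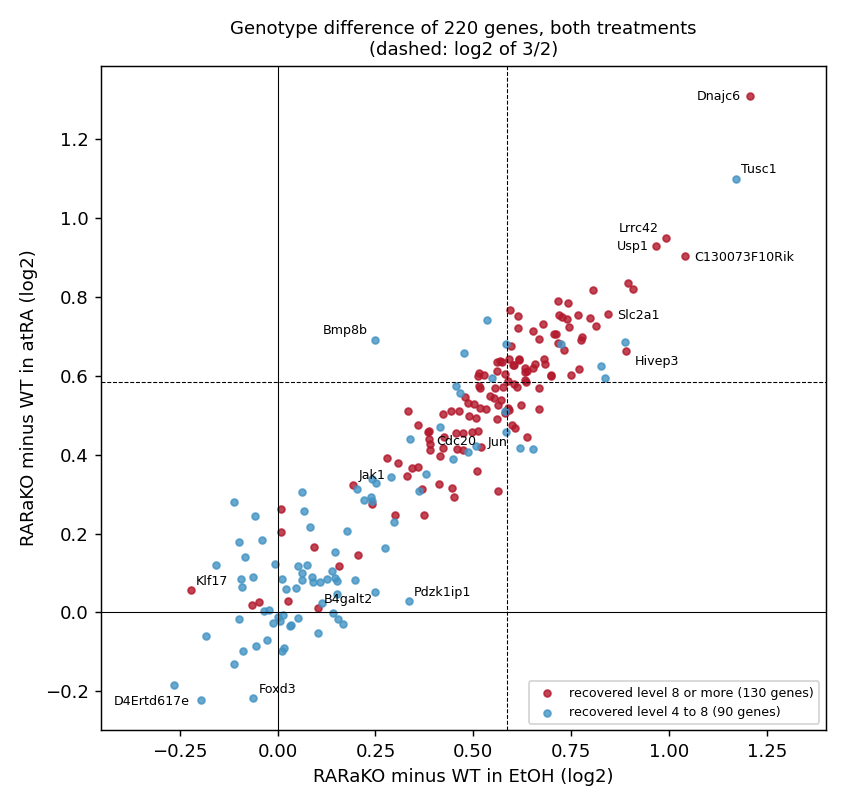
RARaKO minus WT difference (log2) in EtOH (horizontal) and atRA (vertical) of the 220 members, with the dashed lines at a 3 to 2 ratio. Genes of the higher level class (red) gather near the crossing of the dashed lines, genes of the lower class (blue) spread from below 0 to above the dashed lines, and Bmp8b lies farthest from the diagonal.

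The 8 members with the highest mean difference were Dnajc6, Tusc1, C130073F10Rik, Lrrc42, Usp1, Efcab14, Ptprf and Tmem125. Dnajc6 encodes auxilin, which strips clathrin from vesicles. In EtOH, Dnajc6 read -0.49, -0.69 and -0.48 in the WT arrays and 0.61, 0.65 and 0.70 in the arrays labelled RARaKO. In atRA, Dnajc6 read -0.75, -1.03 and -0.69 in WT and 0.50, 0.48 and 0.48 in RARaKO. The genotypes lay apart in both treatments, by 1.21 ± 0.09 in EtOH and 1.31 ± 0.09 in atRA, folds of 2.31 and 2.48. Tusc1, whose values stand above, differed by 1.17 ± 0.10 and 1.10 ± 0.10, folds of 2.25 and 2.14.

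C130073F10Rik is a RIKEN gene. In EtOH, C130073F10Rik read -0.40, -0.54 and -0.34 in the WT arrays and 0.57, 0.50 and 0.78 in the arrays labelled RARaKO. In atRA, C130073F10Rik read -0.46, -0.44 and -0.34 in WT and 0.48, 0.34 and 0.65 in RARaKO. No array overlapped, and its differences were 1.04 ± 0.09 and 0.90 ± 0.09. Lrrc42 encodes a leucine-rich repeat protein. In EtOH, Lrrc42 read -0.40, -0.44 and -0.41 in the WT arrays and 0.61, 0.59 and 0.54 in the arrays labelled RARaKO. In atRA, Lrrc42 read -0.57, -0.55 and -0.42 in WT and 0.43, 0.48 and 0.40 in RARaKO. Its replicates lay close together in all groups, and the genotypes were 0.99 ± 0.06 and 0.95 ± 0.06 apart.

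Usp1 encodes the deubiquitinase of the Fanconi anaemia pathway and of PCNA. In EtOH, Usp1 read -0.27, -0.79 and -0.68 in the WT arrays and 0.39, 0.43 and 0.34 in the arrays labelled RARaKO. In atRA, Usp1 read -0.37, -0.45 and -0.64 in WT and 0.62, 0.27 and 0.44 in RARaKO. The WT arrays of this gene spread more than those of Lrrc42, and the differences were 0.97 ± 0.13 and 0.93 ± 0.13. In EtOH, Efcab14 read -0.27, -0.54 and -0.41 in the WT arrays and 0.51, 0.56 and 0.39 in the arrays labelled RARaKO. In atRA, Efcab14 read -0.25, -0.44 and -0.56 in WT and 0.54, 0.25 and 0.47 in RARaKO. This gene for an EF-hand protein showed no overlap and differed by 0.90 ± 0.10 and 0.83 ± 0.10.

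Ptprf encodes the receptor tyrosine phosphatase LAR. In EtOH, Ptprf read -0.32, -0.41 and -0.39 in the WT arrays and 0.45, 0.53 and 0.62 in the arrays labelled RARaKO. In atRA, Ptprf read -0.21, -0.38 and -0.41 in WT and 0.62, 0.21 and 0.64 in RARaKO. The genotypes did not overlap and were 0.91 ± 0.10 and 0.82 ± 0.10 apart. In EtOH, Tmem125 read -0.29, -0.44 and -0.18 in the WT arrays and 0.43, 0.39 and 0.68 in the arrays labelled RARaKO. In atRA, Tmem125 read -0.46, -0.33 and -0.34 in WT and 0.51, 0.18 and 0.63 in RARaKO. The differences of this transmembrane protein gene were 0.80 ± 0.11 and 0.82 ± 0.11, with intervals that still held 0.58.

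Above 3 to 2 in both treatments were 11 members: Dnajc6, Tusc1, C130073F10Rik, Lrrc42, Usp1, Efcab14 and Ptprf from the genes above, and Slc2a1 (0.84 and 0.76 in EtOH and atRA), Ppcs (0.80 and 0.75), Rlf (0.77 and 0.75) and Stil (0.72 and 0.75). Slc2a1 encodes the glucose transporter GLUT1, Ppcs an enzyme of coenzyme A synthesis, Rlf a zinc finger protein and Stil a factor of centriole duplication. Only Tusc1 among them was in the lower level class. C130073F10Rik, Dnajc6, Lrrc42 and Tusc1 stayed in this class in each of 20 settings of the analysis that measured them, over which the class held from 5 to 12 members. It held 7 without set 2 or set 4 of the RARaKO atRA arrays or set 4 of the WT atRA arrays, and 5 after quantile normalization. In EtOH alone the class went from 17 members to 11 without set 3 of WT, and in atRA alone from 13 to 8 without set 2 of RARaKO, the array with the widest spread. With the mean of all its probe sets in place of 1, Dnajc6 differed by 0.87 and 0.93, Usp1 by 0.60 and 0.67, Efcab14 by 0.44 and 0.48, and Tmem125 by 0.57 and 0.59.

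Members were grouped into 11 lists by function, with 58 members in none. Of 18 genes of RNA processing and translation, 16 were in the higher level class. All 18 had a gain of any size in both treatments, with medians of 0.58 and 0.59. The 4 highest were Toe1, a nuclease of small nuclear RNA ends, at 0.71 and 0.71 (SE 0.06), Btf3l4, related to a factor of the nascent polypeptide complex, at 0.71 and 0.71 (SE 0.07), Kti12, a factor of transfer RNA modification, at 0.73 and 0.67 (SE 0.05), and Tut4, a uridylyltransferase of microRNA precursors, at 0.61 and 0.72 (SE 0.11). The 2 lowest were L1td1, an RNA-binding protein of pluripotent cells, at 0.38 and 0.46 (SE 0.06), and Ybx1, the Y-box RNA-binding protein, at 0.24 and 0.28 (SE 0.05), both partial in both treatments. Values in these pairs are the differences in EtOH and then atRA, with 1 standard error that applies to both. The numbers of list members with a gain stand beside the 7.25% and 7.71% of all genes given above, and nothing is read from them, since the run was chosen on these differences.

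All 6 chromatin and histone genes were in the higher level class and had a gain in both treatments, with medians of 0.65 and 0.68. They were Mysm1, a histone deubiquitinase, at 0.74 and 0.79 (SE 0.09), Dmap1, a partner of DNA methyltransferase and acetyltransferase complexes, at 0.73 and 0.75 (SE 0.08), Nasp, a histone chaperone, at 0.65 and 0.71 (SE 0.11), Kdm4a, a histone demethylase, at 0.62 and 0.64 (SE 0.07), Scmh1, a Polycomb protein, at 0.64 and 0.61 (SE 0.07), and Mier1, a co-repressor, at 0.47 and 0.46 (SE 0.10). Of 13 genes of the cell cycle, replication and repair, 12 had a gain in EtOH and 12 in atRA, with medians of 0.56 and 0.53. After Usp1 the highest were Zyg11a, a substrate receptor of a ubiquitin ligase, at 0.74 and 0.74 (SE 0.09), Stil at 0.72 and 0.75 (SE 0.06) and the exonuclease gene Exo5 at 0.74 and 0.72 (SE 0.08). The lowest were the repair glycosylase gene Mutyh at 0.34 and 0.37 (SE 0.08) and Cdkn2c, an inhibitor of cyclin-dependent kinases, at -0.03 and -0.07 (SE 0.08). Cdkn2c was the only gene of the list in the lower level class and the only one without a gain in both treatments.

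Among 11 genes of mitochondria and energy, 10 were in the higher level class. A gain in both treatments was found for 10, with medians of 0.60 and 0.60 over the list. The adenylate kinase gene Ak4 differed by 0.72 and 0.79 (SE 0.11), the inner membrane peptidase gene Oma1 by 0.77 and 0.69 (SE 0.08), Prkaa2, a catalytic subunit of AMP-activated kinase, by 0.77 and 0.62 (SE 0.15), and the oxidase assembly factor Coa7 by 0.68 and 0.63 (SE 0.08). At the low end were Uqcrh, a subunit of respiratory complex III, at 0.36 and 0.37 (SE 0.06), and Oxct2a, a ketone body enzyme of testis, at 0.06 and 0.08 (SE 0.10). Of 28 genes of trafficking, cytoskeleton and protein turnover, 23 were in the higher level class. A gain was found for 27 in EtOH and 27 in atRA, with medians of 0.57 and 0.55 over the list. Behind Dnajc6 came the autophagy protease gene Atg4c at 0.83 and 0.62 (SE 0.10), the lamin protease gene Zmpste24 at 0.68 and 0.73 (SE 0.07) and the vesicle GTPase gene Rab3b at 0.72 and 0.68 (SE 0.17). The ubiquitin ligase gene Rnf220 was partial at 0.37 and 0.25 (SE 0.06), and Agbl4, a carboxypeptidase that acts on tubulin, showed no gain at -0.09 and -0.10 (SE 0.10).

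Of 17 genes of sugars, nucleotides and cofactors, 15 had a gain in EtOH and 14 in atRA, with medians of 0.50 and 0.46. The 12 of the higher level class had medians of 0.51 and 0.46. Behind Ppcs stood Mmachc, which handles cobalamin, at 0.66 and 0.63 (SE 0.08), Rimkla, a synthetase of N-acetylaspartylglutamate, at 0.54 and 0.74 (SE 0.11), and Ctps, CTP synthase, at 0.57 and 0.64 (SE 0.06). The lowest were the isomerase gene Hyi at 0.08 and 0.22 (SE 0.07) and the galactosyltransferase gene B4galt2 at 0.10 and 0.01 (SE 0.06). Of 9 lipid and sterol genes, 6 had a gain in EtOH and 6 in atRA, with medians of 0.36 and 0.32. The 5 of the higher level class had medians of 0.42 and 0.40. Plpp3, a phosphatase of lysophosphatidic acid, differed by 0.68 and 0.64 (SE 0.11), the fatty acid amide hydrolase gene Faah by 0.49 and 0.41 (SE 0.08), the sterol carrier Scp2 by 0.36 and 0.47 (SE 0.08) and the oxysterol-binding protein gene Osbpl9 by 0.42 and 0.40 (SE 0.06). Acot11, an acyl-CoA thioesterase, and the reductase gene Cyb5rl showed no gain, at 0.09 and 0.17 (SE 0.09) and 0.07 and 0.12 (SE 0.11).

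Of 21 transcription factors and co-regulators, 11 had a gain in EtOH and 13 in atRA, and the medians were 0.36 and 0.31. The 11 of the higher level class had medians of 0.52 and 0.58. The zinc finger gene Hivep3 differed by 0.89 and 0.66 (SE 0.08), Rlf by 0.77 and 0.75 (SE 0.07), the forkhead gene Foxj3 by 0.59 and 0.77 (SE 0.08), and Nfyc, a subunit of the CCAAT-binding factor, by 0.60 and 0.67 (SE 0.07). At the low end were 2 other forkhead genes, the lens factor Foxe3 at -0.09 and 0.06 (SE 0.09) and Foxd3 at -0.06 and -0.22 (SE 0.07). Of 22 receptors, ligands and signalling genes, 12 had a gain in EtOH and 13 in atRA, and the medians were 0.24 and 0.33. The 8 of the higher class had medians of 0.48 and 0.50. Behind Ptprf came the kinase gene Tesk2 at 0.81 and 0.73 (SE 0.14), Pik3r3, a regulatory subunit of phosphoinositide kinase, at 0.55 and 0.59 (SE 0.09), and Mknk1, a kinase of the cap-binding factor, at 0.51 and 0.60 (SE 0.08). The gut peptide gene Guca2a and the endothelial receptor gene Tie1 showed no gain, at -0.16 and 0.12 (SE 0.08) and -0.11 and -0.13 (SE 0.10).

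Of 6 transporters and channels, 3 were in the higher level class, and these were the 3 with a gain in both treatments: Slc2a1 at 0.84 and 0.76 (SE 0.07), the proton pump subunit Atp6v0b at 0.61 and 0.47 (SE 0.08) and the glycine transporter Slc6a9 at 0.41 and 0.32 (SE 0.07). The other 3, all of the lower class, were the barttin gene Bsnd at 0.05 and 0.06 (SE 0.08), Slc5a9 at 0.02 and -0.01 (SE 0.09) and Slc1a7 at 0.0016 and -0.01 (SE 0.12). Of 11 tissue-restricted genes, 1 was in the higher class, 4 had a gain in EtOH and 4 in atRA, and the medians were 0.05 and 0.08. Col9a2, a chain of cartilage collagen, differed by 0.84 and 0.59 (SE 0.12), the cytochrome gene Cyp4x1 by 0.58 and 0.51 (SE 0.10), Cyp2j13 by 0.18 and 0.21 (SE 0.08) and Pdzk1ip1 by 0.34 and 0.03 (SE 0.15). Cyp2j11 and the complement gene C8b showed no gain, at -0.09 and 0.08 (SE 0.07) and -0.18 and -0.06 (SE 0.10). Of the members in a list, Foxd3 alone had an interval below 0, in atRA. The 58 genes in no list had medians of 0.18 and 0.22, and the 23 of them in the higher class had 0.60 and 0.58.

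**Figure D4:**
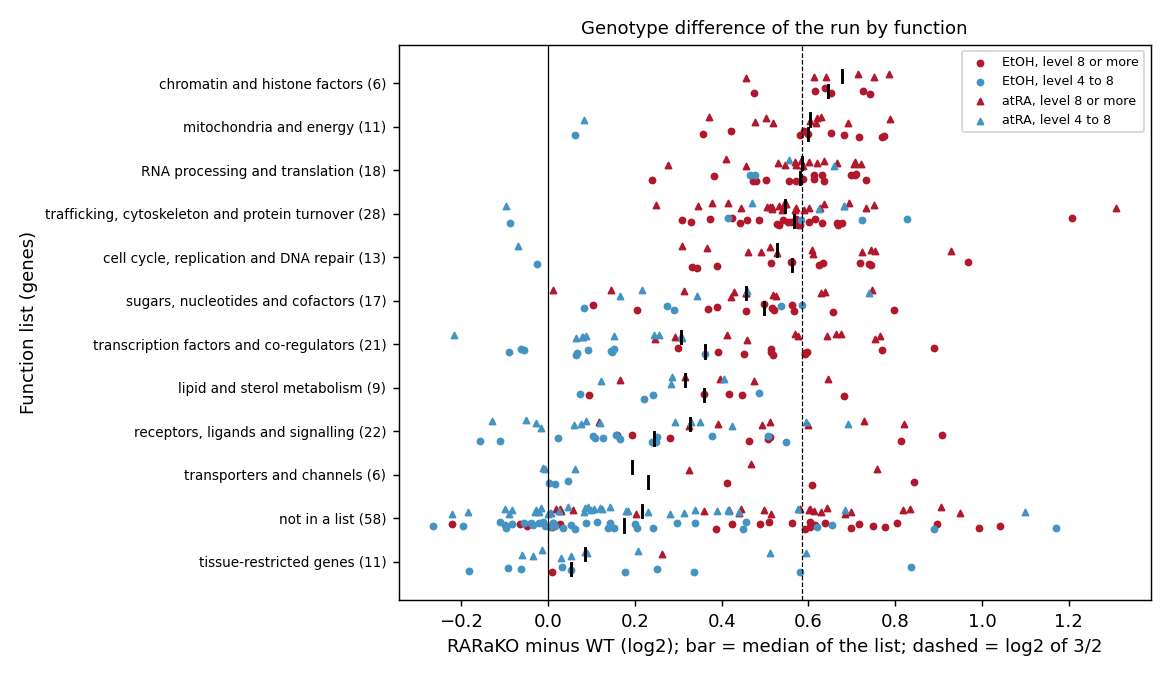
RARaKO minus WT difference (log2, horizontal axis) of every member by function list, with the number of genes in brackets, circles for EtOH and triangles for atRA, red and blue for the higher and lower level class, and bars for list medians. Medians of chromatin, mitochondrial, RNA, trafficking and cell cycle genes lie near the dashed line at 0.58, while that of tissue-restricted genes lies near 0. Most genes of the former lists, and only 1 tissue-restricted gene, are of the higher level class. The part of level in these medians was not tested.

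No gain in both treatments was found for 57 members, of which 49 were in the lower level class. The other 8, in the higher class, were Pde4b, Acot11, 4930522H14Rik, B4galt2, Tmco2, Ccdc17, Junos and Klf17; this set was named after its values were seen. In EtOH, B4galt2 read -0.11, -0.15 and -0.09 in the WT arrays and 0.06, -0.10 and 0.01 in the arrays labelled RARaKO. In atRA, B4galt2 read 0.07, 0.04 and -0.01 in WT and -0.02, 0.06 and 0.09 in RARaKO. The genotypes overlapped in both treatments, and both intervals of B4galt2 lay below 0.58. Pde4b, a cyclic AMP phosphodiesterase, read at 0.16 and 0.12 (SE 0.12), and each of its 3 probe sets showed no gain in both treatments. Klf17, a Krüppel-like factor of germ cells and early embryos, was at -0.22 and 0.06 (SE 0.13), the lowest EtOH value of the higher class. Jak1, the cytokine receptor kinase, showed no gain in EtOH (0.19 ± 0.11) and a partial gain in atRA (0.32 ± 0.11) with the probe set chosen for it, while its other 2 probe sets differed by 1.04 and 1.18 and by 0.39 and 0.35. The immediate early gene Jun was at 3 to 2, with 0.51 and 0.46 (SE 0.07), and its antisense neighbour Junos at -0.07 and 0.02 (SE 0.12).

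The 6 members with the lowest mean difference were Agbl4, Tie1, C8b, Foxd3, D4Ertd617e and 4933424M12Rik, all of the lower level class. In EtOH, D4Ertd617e read 0.13, 0.13 and 0.17 in the WT arrays and -0.15, -0.02 and 0.02 in the arrays labelled RARaKO. In atRA, D4Ertd617e read 0.16, -0.03 and 0.18 in WT and -0.08, -0.15 and -0.12 in RARaKO. The WT arrays lay above the RARaKO arrays in both treatments, and the difference of this unnamed transcript, -0.20 ± 0.07 and -0.22 ± 0.07, had an interval below 0 in both treatments, as in no other member. It was read by a probe set of a type that can match several transcripts. In EtOH, 4933424M12Rik read -0.06, 0.0007 and 0.62 in the WT arrays and -0.0007, -0.13 and -0.11 in the arrays labelled RARaKO. In atRA, 4933424M12Rik read 0.14, 0.23 and 0.09 in WT and -0.16, 0.15 and -0.07 in RARaKO. In EtOH its difference of -0.27 ± 0.15 went with WT set 4, without which it was -0.05, and the groups overlapped.

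In EtOH, Agbl4 read -0.13, 0.06 and 0.06 in the WT arrays and -0.02, -0.17 and -0.09 in the arrays labelled RARaKO. In atRA, Agbl4 read 0.10, 0.07 and 0.02 in WT and -0.12, 0.22 and -0.20 in RARaKO. In EtOH, Tie1 read 0.16, 0.12 and -0.19 in the WT arrays and -0.19, -0.07 and 0.03 in the arrays labelled RARaKO. In atRA, Tie1 read 0.16, -0.03 and 0.16 in WT and 0.08, -0.11 and -0.07 in RARaKO. Agbl4 and Tie1 overlapped between genotypes in both treatments. In EtOH, C8b read -0.12, 0.01 and 0.13 in the WT arrays and -0.10, -0.16 and -0.27 in the arrays labelled RARaKO. In atRA, C8b read 0.03, -0.01 and 0.05 in WT and -0.25, 0.01 and 0.14 in RARaKO. These arrays overlapped as well in C8b. Foxd3, at -0.06 and -0.22 (SE 0.07), had an interval below 0 in atRA alone, and its arrays are given with its response to atRA below.

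The response to atRA was tested, since it played no part in the choice of the run. In WT, 1 of the 220 members was called (limma, adjusted p under 0.05), against 0.806% of all genes, and it was higher in atRA, as 0.697% of all genes were. In RARaKO 2 were called, against 0.406%, of which 1 was higher (0.339% of all genes) and 1 lower (0.0666%). At an unadjusted p under 0.05, 17 members (7.73%) passed in WT against 7.89% of all genes, and 9 (4.09%) in RARaKO against 8.55%. The 3 atRA arrays all lay above the 3 EtOH arrays for 15 members in WT (6.49% of all genes) and 8 in RARaKO (7.24%), and all below for 18 (8.47%) and 14 (6.37%). The median response of the members was -0.03 in WT and -0.02 in RARaKO. The called genes were Hivep3 in both genotypes and Foxd3 in RARaKO. With the set number as a block, 2 members were called in WT, Hivep3 and the cartilage collagen gene Col9a2, whose response of 0.48 had an adjusted p of 0.00785 with the block and 0.153 without it (limma).

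Hivep3 encodes a large zinc finger protein related to the kappa B-binding factors. In WT, Hivep3 read -0.91, -0.86 and -0.89 in EtOH (sets 2, 3 and 4) and -0.04, 0.06 and 0.04 in atRA. In RARaKO it read -0.06, -0.10 and 0.17 in EtOH and 0.59, 0.63 and 0.84 in atRA. The atRA arrays lay above the EtOH arrays in 3 of 3 sets of each genotype, and the RARaKO arrays in EtOH lay around the height of the WT arrays in atRA. Hivep3 rose by 0.91 ± 0.08 in WT (limma, adjusted p = 2.20e-04) and by 0.68 ± 0.08 in RARaKO (limma, adjusted p = 0.00422). The difference between the 2 responses was -0.23 ± 0.12 (limma, adjusted p = 1.00). The call in RARaKO was lost after quantile normalization (limma, adjusted p = 0.0533) and in a fit of the 6 RARaKO arrays alone (limma, adjusted p = 0.110). Its other 4 probe sets were all of the lower level class. Of these, 1 responded by 0.99 in WT and 0.78 in RARaKO (limma, adjusted p = 0.0135 and 0.0988). The other 3 responded by -0.05 to 0.04 in WT and 0.23 to 0.25 in RARaKO and were not called. An average over all its probe sets is therefore a smaller response than that of the chosen one in both genotypes.

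Foxd3 is a forkhead factor of pluripotent cells and the neural crest. In WT, Foxd3 read 0.27, 0.09 and 0.15 in EtOH and -0.13, -0.02 and -0.20 in atRA. In RARaKO it read 0.02, 0.09 and 0.21 in EtOH and -0.27, -0.38 and -0.35 in atRA. All atRA arrays lay below the EtOH arrays of the same genotype. Foxd3 fell by 0.44 ± 0.07 in RARaKO (limma, adjusted p = 0.0297), and its response in WT was -0.29 ± 0.07 (limma, adjusted p = 0.178). The difference between these responses was -0.15 ± 0.11 (limma, adjusted p = 1.00). The call in RARaKO was lost when any 1 of the 6 RARaKO arrays was left out, with adjusted p-values from 0.0574 to 0.132, and in a fit of those 6 arrays alone (limma, adjusted p = 0.168). With array weights the WT response was called as well (-0.32, limma, adjusted p = 0.0396).

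**Figure D5:**
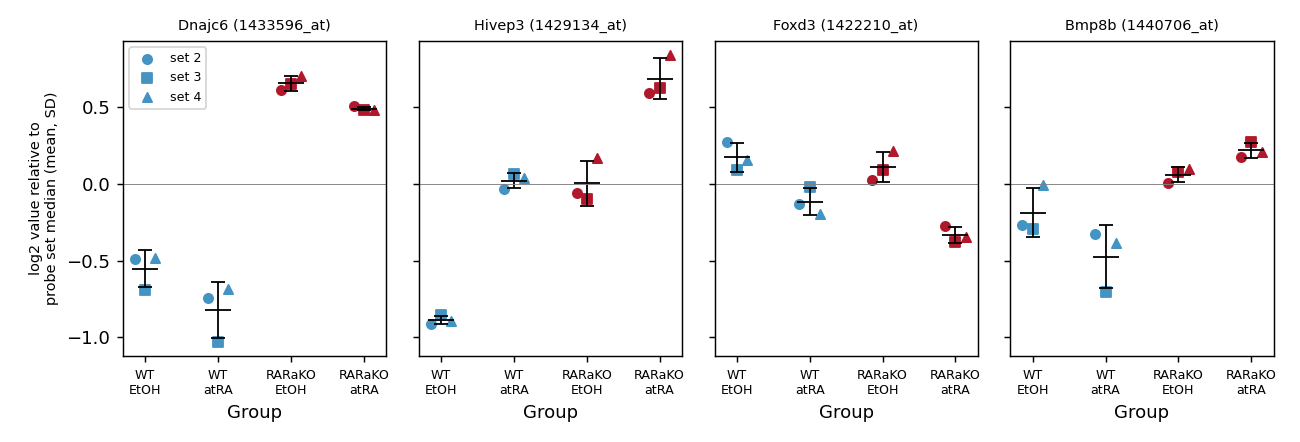
Values of Dnajc6, Hivep3, Foxd3 and Bmp8b in each array (log2, relative to the probe set's median over the 12 arrays), with bars for the group mean and SD of 3 arrays and symbols for the set. Hivep3 is higher in atRA than in EtOH in both genotypes, Foxd3 is lower, and Dnajc6 separates the genotypes in both treatments.

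The genotype difference of the members was compared between treatments through the difference between the responses. None of the 220 members was called (limma, 0.0% of all genes were, smallest adjusted p = 1.00). At an unadjusted p under 0.05 there were 5 (2.27%, against 2.53% of all genes). The differences had a median of -0.01 and ranged from -0.31 for Pdzk1ip1, a PDZK-interacting membrane protein gene, to 0.44 for Bmp8b, a bone morphogenetic protein gene, with a median standard error of 0.117. A p-value that misses the threshold does not show that the 2 treatments gave the same difference, and the 95% interval reached a median of 0.253 to either side.

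Probe sets of a gene did not always give the same class. Of 109 members with several probe sets, 42 had all of them in 1 class in EtOH, and 39 had some with a gain and some without. The median range among the probe sets of a gene was 0.257. Among the 44 members with several probe sets of the higher level class, 3 had some with a gain and some without. Of the probe sets chosen, 7 were of the types that can match several transcripts.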

How the data were processed

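Biotinylated cRNA from F9 cells was hybridised to 12 arrays, 3 per group, and all 12 were used; precision is limited by this number. Per the submitters' processing notes, the authors processed the arrays with GCRMA, whose version is not given in the sources used here. The deposited values are taken as log2, the scale that GCRMA gives; no label states the log base, and on another base the value of a 3 to 2 ratio would differ. In the values themselves, every probe set has a median of 0 over the 12 arrays (largest absolute median 7.02e-07), so they were centred per probe set, a step that no label records, and levels are lost. A class of level (8 or more, 4 to 8, 2 to 4) was recovered from the single-precision steps of values above each probe set's median. Of all probe sets, 38.4%, 61.3% and 0.285% fell in these classes.

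The table holds 37661 probe sets; without 61 controls, 37600 remained for testing. GEO's platform annotation gave 1 gene symbol for 30488 probe sets, several for 784 and none for 6328; 30345 of the 30488 matched RefSeq (GRCm38), which gave chromosome order. A gene was represented by the probe set of the highest level class, then the least ambiguous type, then the lowest identifier.

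A linear model with 4 group means was fitted to the 12 arrays with lmFit and eBayes (limma 3.58.1, run under R 4.3.3). It had 8 residual and 4.60 prior degrees of freedom. The fit was first tried on simulated data with independent noise in each array. Those data held no deviation shared by a set, so they cannot show how the fit behaves where sets deviate together. The set number was not a block in this model. Arrays of the same set deviated together: the correlation of their deviations from the group means was above 0.1 in all 3 sets for the response in WT (0.101 to 0.392), the response in RARaKO (0.117 to 0.497) and the genotype difference in EtOH (0.116 to 0.238), and in 2 of 3 sets for the genotype difference in atRA (0.0375 to 0.287). An array correlated best with its own set in 32 of 36 comparisons. The pairing therefore comes from the data, since no label says what a set shares, and a fit with the set as a block is given where it changed a call. Two-sided p-values were corrected by the Benjamini-Hochberg method across the 37600 probe sets; shares of all genes count 1 probe set for each of 16509 genes. Tables and plots were made with Python 3.11.15, pandas 2.3.3, numpy 2.4.6 and matplotlib 3.10.9. Alternatives were a block for the set number, array weights, arrays centred on genes outside chromosome 4, quantile normalization, the higher level class only, averaging a gene's probe sets, each array left out, and a fit of the 6 arrays compared.

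The members, function lists, classes and naming rule were chosen with earlier results of these data known. The rule named the 8 highest and 6 lowest members by the mean difference, the genes at both edges, the 4 highest and 2 lowest of each list, every member called for a response, and every member above 3 to 2 or lower in both treatments. Col9a2 and Dab1 in the responses, Jak1, B4galt2, Klf17, Pde4b, Jun, Junos, Bmp8b, the members of the longest stretch without gain, the 8 members of the higher class without gain and the gene pairs of the closing section were named after their values were seen.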

Additional observations from a re-analysis of the deposited data

Results flagged for a closer look

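Bmp8b, which encodes a bone morphogenetic protein, was picked because its chosen probe set read in opposite directions with atRA in the 2 genotypes. Over all genes, 8.47% had all atRA arrays below the EtOH arrays in WT, and 7.24% had all above in RARaKO. The share of all genes with both was not counted. In WT it read -0.27, -0.29 and -0.01 in EtOH (sets 2, 3 and 4) and -0.33, -0.71 and -0.39 in atRA. In arrays labelled RARaKO it read 0.01, 0.08 and 0.10 in EtOH and 0.17, 0.27 and 0.21 in atRA. Every WT atRA array lay below every WT EtOH array, and every RARaKO atRA array lay above every RARaKO EtOH array. The response was -0.29 ± 0.10 in WT and 0.16 ± 0.10 in RARaKO, and neither was called (limma, adjusted p = 0.451 and 0.754). The difference between the responses was 0.44 ± 0.14 and was not called either (limma, adjusted p = 1.00). The second probe set of the gene gave a difference between responses of -0.21. Bmp8b and its neighbour Bmp8a are close paralogs, and whether their probes share signal was not tested.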

How the results depend on the processing

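No called value changed sign under the alternatives that were run. The values that did so were not called: C8b in atRA went from -0.06 to 0.05 without RARaKO set 2, and averaging a gene's probe sets took Agbl4 in atRA from -0.10 to 0.02 and the difference between responses of Hivep3 from -0.23 to 0.05. Of the values that answer a comparison, those that moved are the following. The count of members called for a response in WT was 2 with the set number as a block (Col9a2 added), 3 with array weights (Foxd3 and Dab1) and 2 with the higher level class only (Dab1), against 1. That in RARaKO was 1 after quantile normalization, 1 with the higher class only and 0 in the fit of 6 arrays, against 2. Without any 1 of the 6 RARaKO arrays it was 1 to 1. Counts of members called for a response after averaging each gene's probe sets are not given here. The median genotype difference was 0.42 in atRA after quantile normalization, 0.57 and 0.56 in EtOH and atRA with the higher class only, and 0.39 and 0.38 after averaging each gene's probe sets. The cause of these shifts was not tested, beyond that the higher class leaves 130 members. Leaving out 1 array gave 109 to 122 and 111 to 124 members called higher in EtOH and atRA, 105 to 116 and 111 to 118 at 3 to 2, medians of 0.45 to 0.48 and 0.43 to 0.47, 1 to 1 called in WT and 0 to 0 for the difference between responses.

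With the set number as a block, 138 and 139 members were called higher in EtOH and atRA, 100 and 102 were at 3 to 2, 2 were called for a response in RARaKO and 0 for the difference; apart from Col9a2 in WT, the block changed no call of a response. The class without gain holds 49 of its 57 members in the lower level class; the part of signal strength in it was not tested.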

Other observations

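Members linked to another gene of the run, by family or by function, did not always share its class. These genes were picked after their values were seen. The ubiquitin ligase receptors Zyg11a and Zyg11b differed between genotypes by 0.74 and 0.74 and by 0.51 and 0.61 in EtOH and atRA, all at 3 to 2. The endothelial receptor kinases Tek and Tie1 differed by 0.38 and 0.35 and by -0.11 and -0.13. Leprot, a regulator of growth hormone and leptin receptors, differed by 0.46 and 0.51, while the leptin receptor gene Lepr differed by 0.02 and 0.06. Of the gut peptide genes, Guca2b was at 0.10 and -0.05 and Guca2a at -0.16 and 0.12. The cytochrome genes Cyp2j9, Cyp2j11 and Cyp2j13 are close paralogs whose probes could share signal, and they differed by 0.25 and 0.05, by -0.09 and 0.08 and by 0.18 and 0.21. Lepr, Tie1, Tek, Guca2a, Guca2b and the 3 cytochrome genes are in the lower level class, while Leprot, Zyg11a and Zyg11b are in the higher class.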
